A study of Ambystoma mexicanum with 2 samples.

Results

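The labels miR-15, miR-16, miR-195, miR-497 and miR-424 were followed in small RNA from the tail of the Mexican axolotl. A label is the family name that the deposited table gives to entries of mirBase, where microRNA sequences of many species are collected. Members were taken by name, as these 5 names with at most 1 letter after the number, and no measured value entered this rule. The group itself was chosen with earlier results of these data known. This gave 13 of 4563 known labels, with 151 of 9277 mirBase entries from 40 species prefixes. Of 8 names expected in the group, 7 had reads listed, while 0 labels of miR-424 were listed. There was 1 library per condition, each of tail tissue pooled from 20 mature axolotls. The blastema library was taken 3 days after injury and takes its name from the mass of cells that builds up at the wound, and the control library is from animals whose tails were intact and had not regrown. Without replicates, the conditions could not be compared by a test. The injury was amputation of the tail, and the paper states that animals were anesthetized with p-amino benzocaine before in vivo experiments. Strain, genotype, exact age and any other agent were not given in the sources used here.

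MicroRNAs are short RNAs that guide a silencing complex to messenger RNAs, mainly by pairing of the seed, bases 2 to 8 of the mature microRNA. The miR-15 family of vertebrates shares the seed AGCAGCA. In mammals miR-15a and miR-16 are made from a common precursor transcript, as are miR-15b and another copy of miR-16, and miR-195 and miR-497 come from another locus. Known targets in human cells include the cyclins CCND1 and CCNE1, the checkpoint kinases WEE1 and CHEK1 and the survival factor BCL2, so that the family is known as a brake on the cell cycle. In the mouse heart miR-195 rises after birth, when the muscle cells stop dividing.

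Known entries are named in the deposited table without their bases. Bases are given there for the sequences that failed to map to mirBase, which the authors grouped into families named miR-pn and searched for a partial homology to mirBase. For 12 of these families the homology listed was to labels of this group. Their most common sequences are shown since only there can the bases themselves be seen, with the seed letters AGCAGCA, or their reverse complement TGCTGCT, in capitals and all other letters in lower case. In the 3 families on the first lines, which carry the contrast described below, the seed letters open the most common read, from base 1, while the known seed begins at base 2.

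pn1330, homology to miR-15b, miR-15c and others: AGCAGCAcatcatggtttgcaa
pn1331, homology to miR-16a, miR-16b and others: AGCAGCAcgtaaatattggagaa
pn1329, homology to miR-195, miR-195a and others: AGCAGCAcagaaatattggcca
pn2152, homology to miR-16b and others: tggagtAGCAGCAcgtaaata
pn3523, homology to miR-15b, miR-15a and miR-15c: ctgatcattattTGCTGCTtca
pn2487, homology to miR-15c and miR-15b: cataccattctgagctgcctcg
pn149, homology to miR-15c and miR-15b: acaaaccatcttgggctgttac

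Counted from the start of the read, pn1331 and pn1329 had the same base at 18 of 22 positions, and pn1330 and pn1331 at 14 of 22. Of the 12 families, 6 held the seed letters in the most common sequence, 2 held the reverse complement and 4 held neither. Over all unmapped sequences, searched on the strand that was read, AGCAGCA was found in 132 of 59811, or 0.221%, and TGCTGCT in 21, or 0.0351%.

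The control library summed to 12613931 counted reads and the blastema library to 9952885, and levels are given as reads per 1000000 reads (rpm) of these totals with the Wilson 95% interval. Labels of muscle microRNAs, such as miR-1, miR-133 and miR-206, took up 67.4% of the control library but 14.3% of the blastema library, so a ratio between the libraries depends on the total. The median log2 ratio of blastema over control was 2.26 over the 3090 known labels with at least 10 reads, and a ratio is read against this value. Intervals of ratios are exact binomial 95% intervals and, like those of levels, cover the error of counting alone: copies made by PCR are not separate molecules.

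All 13 labels together had 9311 control reads and 42187 blastema reads. Their level was 738 rpm (723 to 753) in uninjured tail and 4239 rpm (4199 to 4279) in the blastema. The log2 ratio was 2.52 (2.49 to 2.55) and the share 5.74-fold larger in the blastema, close to the median ratio of all known labels. With edgeR's TMM factors, which scale on the bulk of labels, it was 0.38. Among the 11 member labels with at least 10 reads, 9 were past 2-fold upwards, with a larger share in the blastema, against 84.3% of all known labels with at least 10 reads. Only 1 member label, miR-195a with 15 reads in all, was at least 2-fold lower, against 1.84% of all labels. The share of member labels past 2-fold upwards, 81.8%, was thus near that of all labels. Under TMM 2 of the 11 were past 2-fold upwards and 2 downwards, against 27% and 18.1% of all labels. With the muscle labels taken out of the total, 5 were past it upwards and 2 downwards, against 46.7% and 7.64%. With the library depth stated in the methods of the study these were 8 and 2 (69.8% and 2.91% of all labels), with known reads only 9 and 1 (88.3% and 1.55%), past 4-fold 8 and 0 (60.3% and 0.55%), and among the 8 labels with at least 100 reads 7 and 0 (85.7% and 3.47%).

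miR-15a had 1316 control reads and 8826 blastema reads. Its level was 104 rpm (98.8 to 110) and 887 rpm (868 to 905), respectively, and the log2 ratio was 3.09 (3.00 to 3.17). miR-15b had 1966 and 9645 reads, or 156 (149 to 163) and 969 (950 to 989) rpm, with a log2 ratio of 2.64 (2.57 to 2.71). Summed over entries, 34 for miR-15b and 25 for miR-15a, miR-15b was the most abundant member label in the blastema. By leading entry the order was reversed, with 7782 blastema reads for pma-miR-15a and 6302 for gga-miR-15b-5p. Both labels lay above the median of all labels. miR-15c had 436 and 3588 reads, or 34.6 (31.5 to 38.0) and 360 (349 to 372) rpm. With 3.38 (3.24 to 3.53) it had the highest log2 ratio of the member labels with control reads, and 77.7% of the known labels with at least 10 reads had a lower one. The label miR-15e, listed from Atlantic salmon entries only, had 0 control reads and 23 blastema reads. Set against 3 counts in the control, its share is 9.72-fold larger. The exact interval of its log2 ratio begins at 2.86, a lower limit than this fold gives. Its entries were listed through the blastema alone, so the direction was fixed. miR-15 without a letter, from 1 bat entry, had 4 and 15 reads (log2 ratio 2.13, 0.60 to 4.30).

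For miR-16, 2025 control reads and 6981 blastema reads were counted. Its control level, summed over 25 entries, was 161 rpm (154 to 168), the highest of the member labels, and the blastema level was 701 rpm (685 to 718). The log2 ratio was 2.13 (2.06 to 2.20). miR-16a had 1285 and 5378 reads, or 102 (96.5 to 108) and 540 (526 to 555) rpm, with a log2 ratio of 2.41 (2.32 to 2.50). miR-16b had 1890 and 7398 reads, or 150 (143 to 157) and 743 (727 to 760) rpm, and its log2 ratio was 2.31 (2.24 to 2.38). From the median of all labels these 3 differed by -0.13, 0.15 and 0.05 on the log2 scale. With TMM they were between -0.0132, for miR-16, and 0.27. miR-16c was lower in level and in ratio. It had 83 and 175 reads, or 6.58 (5.31 to 8.16) and 17.6 (15.2 to 20.4) rpm, and a log2 ratio of 1.41 (1.03 to 1.81), which was -0.73 with TMM.

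miR-195 went the other way. It had 290 control reads and 146 blastema reads, or 23.0 rpm (20.5 to 25.8) and 14.7 rpm (12.5 to 17.2). The intervals of the levels do not overlap, and the log2 ratio was -0.65 (-0.95 to -0.36), a 1.57-fold larger share in the control. Only 2.36% of the known labels with at least 10 reads had a lower log2 ratio. None of the 4 other scalings turned it, with -0.46 on known reads and -2.79 under TMM at the ends of their range. However, known reads add only 0.19 to each log2 ratio and the other scalings lower it, so none could turn this value. miR-195a, from 1 mouse entry, had 12 and 3 reads, with a log2 ratio of -1.49 and a wide interval of -4.12 to 0.23. Muscle microRNAs were also lower in the blastema library, with a median log2 ratio of -1.88 over 16 labels, of which 14 were at least 2-fold lower, beside 1.84% of all known labels. The part of muscle tissue in the lower share of miR-195 was not tested, and in pooled tissue fewer cells and less RNA per cell cannot be told apart.

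miR-497, which in mammals is encoded beside miR-195, was hardly sequenced. Its label had 2 control reads and 5 blastema reads (log2 ratio 1.48, -0.95 to 5.06), and miR-497b had 2 and 4 (1.19, -1.46 to 4.81). Both intervals include 0, so no difference was detectable at this depth. The only entry of miR-497 was the 3p arm of the sea lamprey and that of miR-497b was from mouse.

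**Figure D1:**
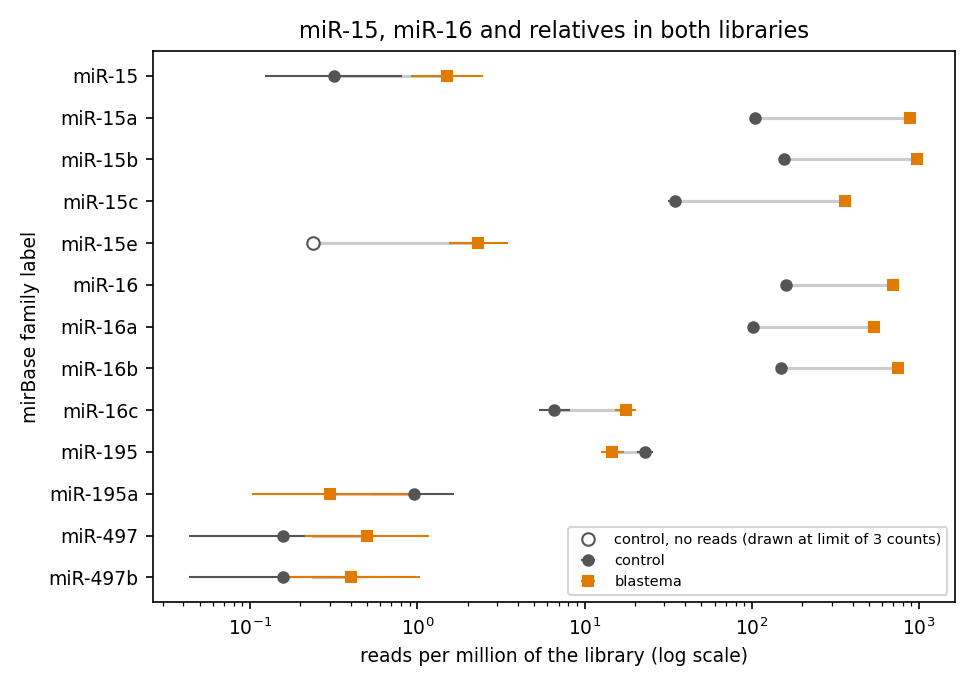
Level of each member label in rpm (log axis) in the control library (grey circles) and the blastema library (orange squares), with Wilson 95% counting intervals. The open circle of miR-15e stands for 0 control reads and is drawn at the limit of 3 counts. Blastema lies to the right of control for each label except miR-195 (23.0 against 14.7) and miR-195a.

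In the control library the order of levels was miR-16, miR-15b and miR-16b, whose intervals overlap from each to the next, then miR-15a and miR-16a, whose intervals also overlap, then miR-15c, miR-195 and miR-16c, each apart from the next. The other 5 labels were below these in both libraries, at 2.31 rpm or less. In the blastema library the order was miR-15b, miR-15a, miR-16b, miR-16, miR-16a and miR-15c, with no overlap between neighbours, and then miR-16c and miR-195, whose intervals overlap. Labels sum different numbers of entries, and entries may share reads. Both orders thus rank the labels of the table and not separate genes. Among known labels ranked by reads, miR-15b was at rank 78 of the control and rank 67 of the blastema, and miR-195 at 174 and 368.

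**Figure D2:**
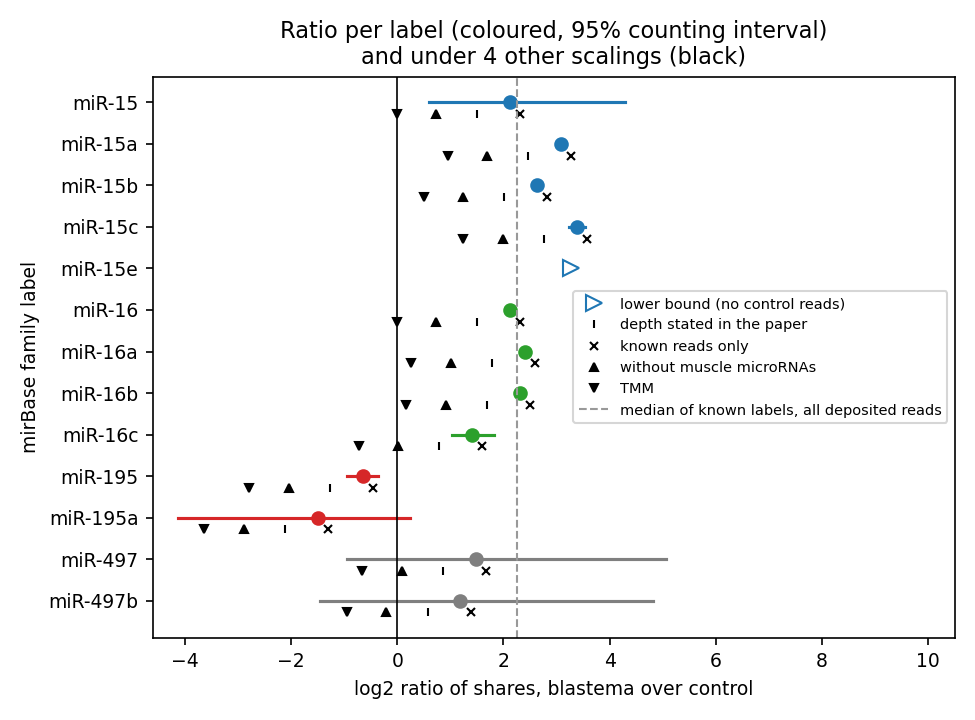
Log2 ratio of blastema over control for each member label, with the exact 95% counting interval (colour) and the values under 4 other scalings (black). The open triangle of miR-15e, marked as a lower bound, is drawn with 3 counts in the control, and its exact interval begins lower, at 2.86. The dashed line is the median of the known labels with at least 10 reads, 2.26. miR-195 lies below 0 under each scaling, while miR-15a, miR-15b and miR-15c lie above 0 under each. The other scalings add between -2.14 and 0.19 to every ratio, so none could bring miR-195 above 0.

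How reads divide within the group does not depend on any total. The miR-15 labels held 40.0% (95% interval 39.0 to 41.0) of the group's control reads and 52.4% (51.9 to 52.9) of its blastema reads. The miR-16 labels held 56.7% (55.7 to 57.7) and 47.2% (46.8 to 47.7). Which of them led depends on the entries counted, as chosen after seeing the data. Without pma-miR-15a the miR-16 labels led in both libraries, with 5283 against 2641 reads in the control and 19932 against 14315 in the blastema. With only the leading entry of each label the miR-15 labels led in both, with 2531 against 1523 and 15066 against 5573. The ratio of miR-15 reads to miR-16 reads went from 0.705 to 1.11, a 1.57-fold change, which was 1.44-fold without pma-miR-15a and 1.63-fold with leading entries only. The miR-195 labels went from 3.24% (2.90 to 3.62) to 0.353% (0.301 to 0.414). For each miR-195 read the control had 17.5 miR-16 reads and the blastema 134. This ratio thus changed 7.65-fold, or 2.93 on the log2 scale (2.65 to 3.22), and that of miR-15 to miR-195 reads 12.0-fold (3.59, 3.30 to 3.87). With leading entries only these changes were 5.80-fold and 9.43-fold, and between the leading entries of the labels miR-16 and miR-195, pma-miR-16-5p and tch-miR-195-5p, the change was 4.83-fold (2.27, 1.74 to 2.80). Each of these shifts was larger than the counting error, and none has a replicate check. Mapping allowed up to 2 mismatches, and whether labels of miR-15, miR-16 and miR-195 share reads was not tested.

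**Figure D3:**
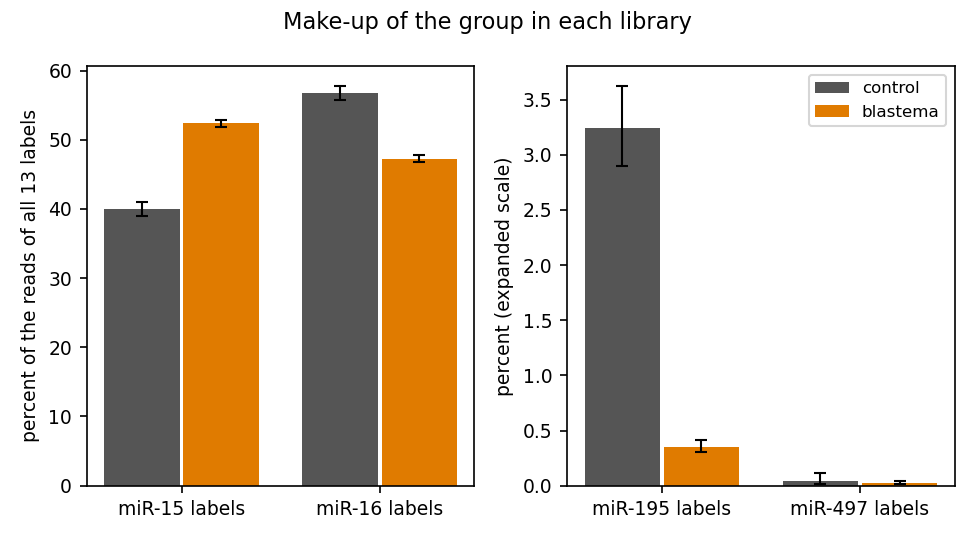
Percent of the reads of all 13 member labels that fell on miR-15, miR-16, miR-195 and miR-497 labels in the control (grey) and the blastema (orange), with Wilson 95% counting intervals. The right panel has an expanded scale, on which the miR-195 labels go from 3.24% to 0.353%.

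The labels are made of entries of many species, and a read of the axolotl is counted under whichever entry it was assigned to. In the miR-16 labels 8 entries, under miR-16, miR-16a and miR-16b and from fugu, zebrafish, goat and others, had between 350 and 388 control reads and between 1387 and 1480 blastema reads. Another 10 entries under the same 3 labels had between 81 and 150 control reads and between 455 and 593 blastema reads. These ranges were set after the counts were seen. The treatment of reads with more than 1 matching entry is not given in the sources used here. Thus miR-16, miR-16a and miR-16b may share reads and are not separate measurements of different genes. Entries under the other labels, such as miR-195, may share reads as well.

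In miR-15a, 87.4% of the reads fell on the sea lamprey entry pma-miR-15a. It had 1081 control reads and 7782 blastema reads and a log2 ratio of 3.19 (3.10 to 3.28). It also had the highest ratio of the 6 miR-15a entries with at least 100 reads, of which tch-miR-15a-5p, from the Chinese tree shrew, was lowest with 45 and 177 reads (2.31, 1.84 to 2.82). In miR-15b the chicken entry gga-miR-15b-5p led with 65.8% of the reads, 1338 of them from the control and 6302 from the blastema (2.58, 2.49 to 2.66). The zebrafish entry dre-miR-15b-5p, with 74 and 930 reads, was highest of the entries with at least 100 reads (3.98, 3.65 to 4.36) and the platypus entry oan-miR-15b-5p, with 128 and 360, was lowest (1.83, 1.54 to 2.14). Entries of miR-15b thus differed by more than their counting error, while each of the 6 with at least 100 reads was higher in the blastema.

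The reads of miR-15c were spread more evenly, with 26.4% on gga-miR-15c-5p (108 and 953 reads, 3.48, 3.19 to 3.78). The African clawed frog entry xla-miR-15c had 77 and 907 reads and the highest ratio of the 5 entries with at least 100 reads (3.89, 3.56 to 4.25), and the zebra finch entry tgu-miR-15c-5p, with 48 and 237, the lowest (2.63, 2.19 to 3.12). Of the western clawed frog, an amphibian like the axolotl, 6 entries were listed, with 216 control reads and 1480 blastema reads in all (3.12, 2.91 to 3.33). Most of these were xtr-miR-15c, with 98 and 955 reads, and xtr-miR-16a, with 95 and 455.

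Within miR-16 the entries varied less. The sea lamprey entry pma-miR-16-5p held 37.2% of the label, with 769 control reads and 2581 blastema reads. Its log2 ratio, 2.09 (1.97 to 2.21), was the lowest of the 6 entries with at least 100 reads, and that of lca-miR-16 was the highest (116 and 457 reads, 2.32, 2.02 to 2.63). The leading entry of miR-16a was chi-miR-16a-5p from goat (350 and 1450, 2.39, 2.22 to 2.57), with a range over its 7 entries with at least 100 reads from ssa-miR-16a-5p at 2.28 to ccr-miR-16a at 2.94. That of miR-16b was ccr-miR-16b from common carp (373 and 1480, 2.33, 2.17 to 2.50), with a range over 8 such entries from oan-miR-16b-5p at 2.20 to chi-miR-16b-5p at 3.30. In miR-16c dre-miR-16c-5p held the most reads, 31 and 62 (1.33, 0.70 to 2.01), and no entry had 100.

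miR-195 and miR-195a had 15 entries. Of these, 14 had a smaller share in the blastema, and it was higher only for the opossum entry mdo-miR-195, which had 2 and 6 reads. Over the table as a whole, 90.5% of the 9277 known entries had a higher share in the blastema. The entry with the most reads, tch-miR-195-5p, had 72 control reads and 50 blastema reads and a log2 ratio of -0.18, with an interval of -0.73 to 0.36 that includes 0. Without it the label had 218 and 96 reads and a log2 ratio of -0.84 (-1.20 to -0.49). The human entry hsa-miR-195-5p had 14 and 2 reads. The counts were low for each entry, and the interval was below 0 for 3 of the 15 and above 0 for none. These entries may share reads, so they are not 15 separate measurements.

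Higher in the blastema were 90.5% of all known entries. This held for 72 of the 74 entries under miR-15 labels and 59 of the 60 under miR-16 labels. The 3 exceptions, named after their values were seen, were ssa-miR-15a-5p from Atlantic salmon with 50 and 23 reads, mdo-miR-15c-3p from opossum with 24 and 2, and oar-miR-16b from sheep with 8 and 5. In the first and the second of these the interval was below 0. Some entries higher in the blastema, such as dre-miR-15a-5p with 0 and 7 reads and gga-miR-16-2-3p with 0 and 18, had no control read. Such entries were listed through the blastema alone, so their direction was fixed. The 90.5% of all known entries includes such entries too.

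**Figure D4:**
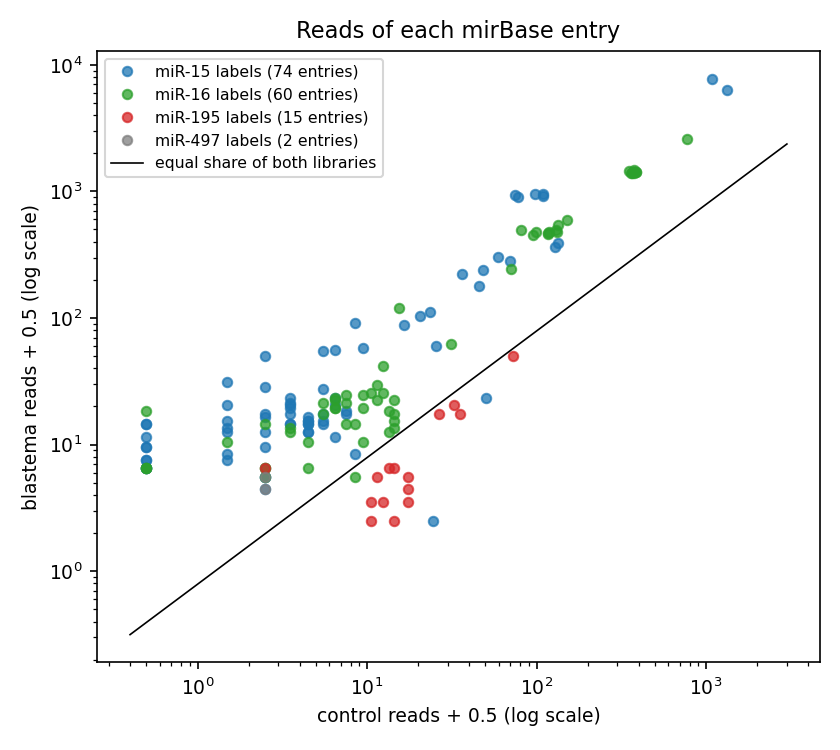
Reads of each of the 151 member entries in the control (x axis) and the blastema (y axis), with 0.5 read added and both axes on a log scale. Entries above the line had a larger share in the blastema. This holds for 72 of 74 miR-15 entries and 59 of 60 miR-16 entries (blue and green), but for 1 of 15 miR-195 entries (red). It holds for 90.5% of all known entries, and entries may share reads. Entries with no control read were listed through the blastema alone and could only lie above the line.

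By arm, entries named 5p held 4819 control reads and 19985 blastema reads, and entries with no arm in their name 4432 and 21934. Entries named 3p, the arm that is usually discarded in this family, held 60 and 268 reads. This is 0.644% (0.501 to 0.829) of the group's control reads and 0.635% (0.564 to 0.716) of its blastema reads, and these intervals overlap. Unmapped families have no arm named and are not part of these shares. The log2 ratio was 2.39 (2.35 to 2.44) for 5p entries, 2.49 (2.09 to 2.93) for 3p entries and 2.65 (2.60 to 2.70) for those without an arm. The 3p reads of the miR-15 labels, 50 and 205 over 8 entries, were mostly from gga-miR-15c-3p (5 and 54), oan-miR-15c-3p (9 and 57) and tgu-miR-15c-3p (6 and 55) in the blastema. The 3p reads of the miR-16 labels were 8 and 58 over 5 entries. miR-195 had no entry named 3p, so its arms could not be compared.

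The unmapped families similar to the group are reads that mapped to none of the entries above, and all their counts are even numbers, so a second interval is given for counts divided by 2. Over the 12 families, with 60 sequences, 966 reads were from the control and 2474 from the blastema. Of these families 9 were past 2-fold upwards and 3 past 2-fold downwards, against 75.1% and 16.3% of the 6846 unmapped families with at least 10 reads.

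The family whose listed homology begins with miR-195, pn1329, was lower in the blastema, as its label was. It had 146 control reads and 30 blastema reads, or 11.6 and 3.01 rpm, a ratio of -1.92 on the log2 scale (-2.56 to -1.37, or -2.85 to -1.13 with halved counts). Of its 4 sequences 3 had a smaller share there, and some of these had no blastema read. Those without a blastema read passed the minimum count of the authors through the control alone, so their direction was fixed. The most common, AGCAGCAcagaaatattggcca, had 102 and 20 reads, and AGCAGCAcagaaatattggccat, which is longer by 1 base, had 24 and 0. pn1331, whose listed homology begins with miR-16a, was higher in the blastema with 18 and 52 reads (1.85, 1.08 to 2.73, or 0.73 to 3.15 with halved counts), and so was each of its 4 sequences. Of these, 1 had no control read and passed that minimum through the blastema alone, so its direction was fixed. The ratio of pn1331 to pn1329 reads changed 14.1-fold between the libraries (log2 3.77, 2.82 to 4.72), which uses no total and no read of the labels. This interval is for the counts as listed and would be wider with halved counts. The ratio includes the sequences that had reads in only 1 library. Both families list homology to miR-16 labels as well as to miR-195 labels, in a different order. With TMM the ratio of pn1331 alone was -0.29, while that of pn1329 was -4.06.

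pn1330, whose listed homology is to miR-15 labels, had 204 control reads and 808 blastema reads, or 16.2 and 81.2 rpm. The log2 ratio was 2.32 (2.10 to 2.56, or 2.01 to 2.66 with halved counts). Its members did not move together. The 10 sequences that begin with the seed letters had 114 and 778 reads (3.11, 2.83 to 3.41). The 2 sequences with a c before the seed letters had 90 and 30 (-1.23, -1.89 to -0.63). Of these, cAGCAGCAcatcatggtttgcaa had 76 and 26 reads and cAGCAGCAcatcatggtttgcat 14 and 4, while AGCAGCAcatcatggtttgcaa, the same letters without the c, had 60 and 356. A variant of the end, AGCAGCAcatcatggtttgtaa, had 4 and 148. This division was made after the values were seen.

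Families without the seed letters went both ways. pn2487 had 58 control reads and 1144 blastema reads, and its log2 ratio of 4.63 (4.26 to 5.05, or 4.11 to 5.24 with halved counts) was the highest of the 11 families with control reads. All 12 of its sequences had a larger blastema share. However, 8 of them had no control read and passed the minimum count of the authors through the blastema alone, so their direction was fixed. pn6133, with 0 and 10 reads, shares a run of 19 bases with it. pn3523, which holds the reverse complement of the seed letters, had 3.49 and 20.9 rpm (2.57, 2.11 to 3.09). By contrast pn149 had 390 and 112 reads (-1.45, -1.77 to -1.15, or -1.91 to -1.02 with halved counts), although its listed homology is to miR-15c and miR-15b as for pn2487. pn148, with 74 and 20 reads (-1.52, -2.34 to -0.82), shares a run of 19 bases with pn149 and was also lower in the blastema. The other families, pn1327, pn2152, pn1328 and pn2563, had at most 40 reads in either library and log2 ratios from 1.47 to 2.41. With halved counts the intervals of pn1328 and pn2563 include 0.

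**Figure D5:**
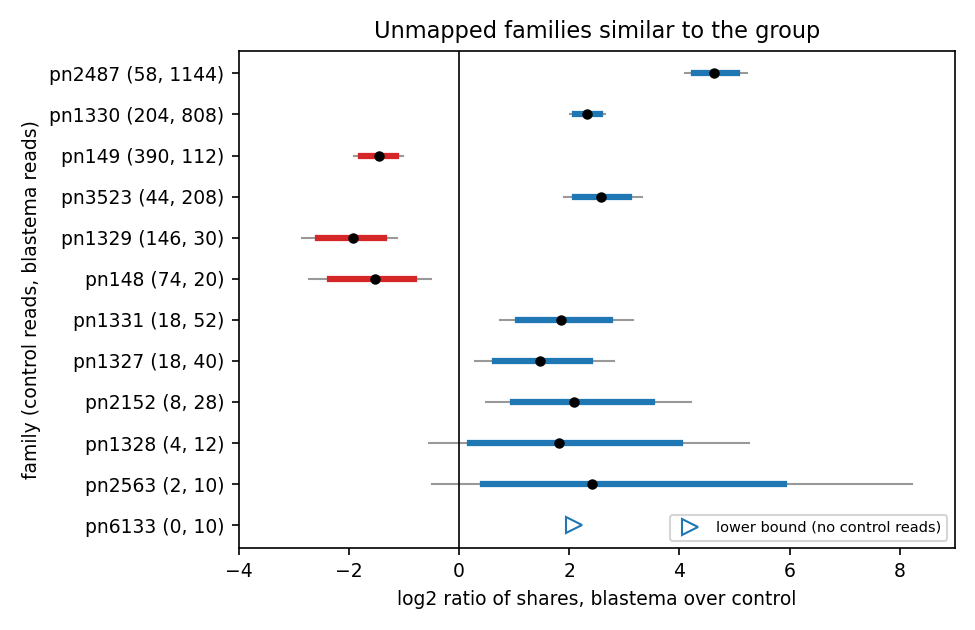
Log2 ratio of blastema over control for the 12 unmapped families similar to the group, with reads of the control and the blastema in parentheses. Coloured bars are exact 95% counting intervals, thin grey bars the same with each count divided by 2, and the open triangle of pn6133 is a lower bound. pn149, pn1329 and pn148 lie below 0 and the others above it.

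Labels that share the seed or nearly so in vertebrates were also looked up. Of miR-322, the rodent counterpart of miR-424, and miR-646, 0 reads were listed. miR-503, which in mammals is encoded near miR-424, had 45 control reads and 57 blastema reads (0.68, 0.09 to 1.28), below the median of all labels, and was at -1.46 with TMM and -0.71 without the muscle labels in the total. The labels miR-457, miR-457a and miR-457b and the label miR-6838 had at most 6 reads in either library.

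For other microRNAs with known roles in the cell cycle, 11 of 12 labels on the list had at least 10 reads, and miR-19a had none listed. Of these 10 were past 2-fold upwards and 0 downwards, near the 84.3% and 1.84% of all known labels. Their median log2 ratio was 2.53, beside 2.26 over all labels. With TMM 4 of the 11 were past 2-fold upwards and 1 downwards, against 27% and 18.1% of all known labels. miR-17, which promotes the cell cycle, had 240 and 1830 reads (3.27, 3.08 to 3.47), and miR-34a, a p53 target that restrains it, had 113 and 1080 (3.59, 3.32 to 3.89). let-7a had the lowest log2 ratio of the list, 0.51, which was -0.11 with the stated depth, -0.88 without the muscle labels in the total and -1.63 with TMM.

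Markers of other cell types of the tail are read against the same background. In it 84.3% of all known labels were at least 2-fold higher and the median log2 ratio was 2.26. With TMM 27% of all known labels were at least 2-fold higher, 18.1% at least 2-fold lower, and the median was 0.12. The 6 leukocyte labels, miR-223, miR-142, miR-142a, miR-142b, miR-155 and miR-150, together went from 256 to 2604 rpm. All 6 were past 2-fold upwards, with a median of 3.10, while with TMM 2 were, and miR-150 (1.24) was at -0.90. The red blood cell labels of miR-451 and miR-144 went from 16.6 to 103 rpm, with a median of 2.11 over the 3 with at least 10 reads, of which 2 were below 0 with TMM, while miR-486 had no reads listed. The 10 epidermal labels had a median of 3.25, and 0 of them were below 0 with TMM. The 8 neural labels had a median of 1.61, below that of all labels, and 6 were below 0 with TMM. The 3 endothelial labels went from 13.5 to 33.5 rpm, and miR-126, the only one with at least 10 reads, had a log2 ratio of 1.30, which was -0.84 with TMM. miR-15 and miR-16 are expressed in blood cells of mammals, and the part of these cells in their higher share was not tested.

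The labels with the most similar levels in both libraries were sought for miR-15b, the member label with the most summed reads. Over 191 other labels with at least 1000 reads, nearest by the distance of log2 shares were miR-6628 (2192 and 9536 reads, distance 0.16), miR-27b (2282 and 9800, 0.22) and miR-22 (2450 and 8195, 0.39). With 2 libraries this is a likeness of 2 levels only.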

How the data were processed

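Small RNA of pooled tail tissue was sequenced in 1 library per condition. The authors trimmed the reads, mapped them with Bowtie 1.1.2 (version per the labels) to mirBase 21 with up to 2 mismatches, and deposited the counts of each entry and unmapped sequence, without normalization. Each listed entry or sequence has at least 6 reads in all. The authors' normalized counts (a signal whose method is not given in the sources used here), the deposited log2 values and the log2 fold changes, which are their own comparison, were not used. Unmapped sequences had been grouped by the authors into families at a Levenshtein distance of 4.

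Counts were summed per label, entry and arm. Log2 ratios compare shares after 0.5 read was added, and their intervals are exact binomial intervals of the blastema reads among those of both libraries. A fold against 0 reads uses 3 counts over the library in its place. Alternatives were 4 other totals (the depth stated in the paper, known reads, edgeR's TMM, no muscle microRNAs), 5 reads added, other minimums and entries, and 4-fold. Named are all member labels, the leading, highest and lowest entries (at least 100 reads) of each label, and fixed lists of relatives, cell cycle microRNAs and markers. The members and lists were chosen with earlier results of these data known. The calculations were tested on simulated data. TMM factors came from edgeR 4.0.16 in R 4.3.3, figures from Matplotlib 3.10.9 and the rest from SciPy 1.17.1, NumPy 2.4.6 and pandas 2.3.3 under Python 3.11.15.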

Additional observations from a re-analysis of the deposited data

How the results depend on the processing

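No paired analysis was possible because each condition has 1 library. For the group as a whole the log2 ratio of 2.52 became 1.90 with the depth stated in the paper, 2.71 with known reads only, 0.38 with TMM and 1.13 on a total free of muscle microRNAs. It was 3.12 with only western clawed frog entries, 2.66 with only the entry with the most reads of each label and, chosen after seeing the data, 2.41 without pma-miR-15a. Also chosen after seeing the data, miR-195 without tch-miR-195-5p was at -0.84. The 9 labels at least 2-fold higher became 5 without the muscle microRNAs in the total and 2 with TMM. The 1 label at least 2-fold lower became 2 with the stated depth, with TMM and without the muscle microRNAs, and 0 with 5 reads added, with at least 100 reads and at 4-fold.

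With TMM the direction turned for miR-15 without a letter (-0.0141), miR-16 (-0.0132), miR-16c (-0.73), miR-497 (-0.66), miR-497b (-0.95) and the families pn1331 (-0.29), pn1327 (-0.67), pn2152 (-0.0530) and pn1328 (-0.32). Without the muscle microRNAs in the total it turned for miR-497b (-0.20). The direction of miR-195 and of pn1329, pn149 and pn148 did not turn under the alternatives run for them. For these families the alternatives were halved counts, TMM, which adds -2.14 to each log2 ratio, and the total without muscle microRNAs, which adds -1.39. Neither total could turn a ratio already below 0. With only the leading entry of each label, miR-195 held 2.03% of the group's control reads and 0.256% of its blastema reads. Counts of miR-195a, miR-497 and miR-497b are too low to show a difference. The alternatives of the miR-195 share, of ratios within a library, of the other lists, of the arms and of the labels at least 2-fold lower were likewise chosen after seeing the data. Of 36 values for the unmapped families under other settings 16 moved by less than the counting interval, 16 moved further and 4 turned.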

Other observations

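Among the 59811 unmapped sequences, the seed letters AGCAGCA began at base 9 in 12, with 38 control reads and 976 blastema reads. They began at base 10 in 29, with 376 and 24, so motif positions went both ways. At base 1 or 2 they began in 59 sequences, with 452 control reads and 1412 blastema reads. Besides the families similar to the group, pn300, whose listed homology is to miR-103 and miR-107, held 5 of these sequences with 20 and 322 reads, led by aAGCAGCAttgtacagggctat. In mammals miR-103 and miR-107 are counted with miR-15 and miR-16 in a wider group, since their seeds overlap when shifted by a base. Another 22 of the 59 sequences belong to no family and had 38 and 94 reads.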
